A study of Mus musculus with 8 samples.

Results

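Lipopolysaccharide (LPS) sensing by Toll-like receptors was followed through 10 genes in mouse B cells lacking Myc, Max or both: the LPS receptor Tlr4 and its partner Ly96, the related pair Cd180 and Ly86, the receptors Tlr1, Tlr7 and Tlr9, and the signalling genes Myd88, Irak1 and Traf6. The genes were chosen by name with earlier results of these data known. Their symbols were matched to gene identifiers, and all 10 were found among the 15681 genes of the table. All 10 also passed the filter on low values, as did 12441 genes in all. Mature B lymphocytes from the spleen of mice 8 to 10 weeks old were sorted, then cultured with 20 µg/ml LPS and 20 ng/ml interleukin 4, and RNA was taken at 72 h. The groups, of 2 libraries each, were cells deficient in Myc (Myc_KO), in Max (Max_KO) or in both (double_KO), and heterozygous cells (HET, called control). Every group, the control included, received LPS and interleukin 4, so that no library shows the genes before stimulation, and the control cells carried the heterozygous genotype and were not labelled wild type. The sources used here do not give the promoter of any Cre or the share of cells with a deletion. They also do not say that replicate libraries are from different animals, and the p-values cover the spread between the libraries at hand, which may be technical.

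LPS, the outer membrane lipid of Gram-negative bacteria, is bound by the protein MD-2, encoded by Ly96, in complex with Tlr4. B cells of the mouse also carry RP105, encoded by Cd180, a Toll-like receptor ectodomain without a signalling TIR domain that pairs with MD-1, encoded by Ly86, and is known to promote the proliferation of mouse B cells to LPS. Tlr4 and the other Toll-like receptors of the set signal through the adaptor Myd88, the kinase Irak1 and the ubiquitin ligase Traf6 to NF-κB. Myc, induced when B cells are activated, binds DNA as a dimer with Max at E-boxes.

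Windows around annotated transcript starts (250 bases before and 50 after) were found in RefSeq, build GRCm38.p6, for 7 of the 10 genes, with 10 windows in all. Those of Cd180 and Tlr9, of Tlr1, which has an E-box, and of Myd88 are shown because Cd180, Tlr9 and Tlr1 were higher in all knock-out groups and Myd88 was in none. Each is written 5′ to 3′ on the strand of its gene. Capitals mark matches, on either strand, to the E-box CACGTG, the PU.1 motif GAGGAAGT, the octamer ATGCAAAT and the GC box GGGCGG, which do not overlap one another here.
Cd180 promoter, chr13:102693308-102693607, plus strand: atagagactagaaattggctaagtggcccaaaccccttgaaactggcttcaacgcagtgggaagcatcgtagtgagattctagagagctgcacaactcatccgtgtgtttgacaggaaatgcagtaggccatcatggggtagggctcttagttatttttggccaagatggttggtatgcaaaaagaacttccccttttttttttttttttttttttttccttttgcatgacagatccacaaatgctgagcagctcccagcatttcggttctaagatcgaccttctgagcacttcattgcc
Tlr9 promoter, chr9:106222348-106222647, plus strand: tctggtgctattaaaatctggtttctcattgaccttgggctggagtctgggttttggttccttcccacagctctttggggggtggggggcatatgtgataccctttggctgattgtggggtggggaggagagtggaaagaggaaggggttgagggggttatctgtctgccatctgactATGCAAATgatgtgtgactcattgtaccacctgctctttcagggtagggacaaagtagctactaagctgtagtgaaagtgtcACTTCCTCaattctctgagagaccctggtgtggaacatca
Tlr1 promoter, chr5:64933509-64933808, minus strand: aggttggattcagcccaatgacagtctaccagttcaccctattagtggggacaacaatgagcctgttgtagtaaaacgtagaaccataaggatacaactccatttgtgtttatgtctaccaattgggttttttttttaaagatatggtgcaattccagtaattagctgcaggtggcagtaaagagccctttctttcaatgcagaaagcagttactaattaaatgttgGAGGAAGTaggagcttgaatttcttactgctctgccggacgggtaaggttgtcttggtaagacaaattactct
Tlr1 promoter, chr5:64932650-64932949, minus strand: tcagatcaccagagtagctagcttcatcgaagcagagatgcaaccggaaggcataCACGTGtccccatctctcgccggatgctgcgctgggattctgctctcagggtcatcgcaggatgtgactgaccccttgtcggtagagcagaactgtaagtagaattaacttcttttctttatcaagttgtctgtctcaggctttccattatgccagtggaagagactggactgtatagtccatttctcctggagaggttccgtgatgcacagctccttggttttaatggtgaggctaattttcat
Myd88 promoter, chr9:119339969-119340268, minus strand: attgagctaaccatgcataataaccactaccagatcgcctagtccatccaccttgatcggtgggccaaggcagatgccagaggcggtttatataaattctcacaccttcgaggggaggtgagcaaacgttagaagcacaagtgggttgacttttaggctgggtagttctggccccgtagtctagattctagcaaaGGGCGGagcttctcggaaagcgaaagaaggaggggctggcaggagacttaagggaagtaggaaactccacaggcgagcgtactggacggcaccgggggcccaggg
The E-box of Myc and Max, found in 7.15% of 32851 windows of the same length, matched 1 of the 10 windows, the Tlr1 window that starts at 64932650. The octamer, which is bound by Pou2f1, found in most cell types, and Pou2f2, enriched in B cells, was found in 1.74% of all windows and matched Tlr9. The PU.1 motif, present in 3.2% of all windows, matched Tlr9 and the Tlr1 window that starts at 64933509. The GC box, present in 35.7%, matched 4 windows, those of Myd88, Irak1 and Traf6. A match describes letters in a window and was not set against any measurement of binding.

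Levels are in RPM, that is, reads as estimated by the authors' pipeline relative to the library size that underlies the deposited values. Libraries held 14.88 to 17.91 M estimated reads, so that 1 read was worth 0.0534 to 0.0653 RPM. Myc, the gene targeted in 2 groups, was at 48.3 and 55.7 RPM in Myc_KO, 192 and 176 RPM in Max_KO, 38.7 and 55.3 RPM in double_KO and 111 and 116 RPM in control libraries. Max was at 70.4 and 59.8 RPM in Myc_KO, 16.4 and 15.5 RPM in Max_KO, 28.6 and 31.2 RPM in double_KO and 55 and 54.5 RPM in control libraries. Each targeted gene was thus lowest in the groups named for its loss, with transcript left in all of them. For 2 libraries the labels conflict, and groups here follow the titles, which are also the column names. The description and genotype fields give Myc_KO for the library numbered 32, here double_KO replicate 1. They give the double knock-out for the library numbered 44, here Myc_KO replicate 2. Max was at 28.6 RPM in the library numbered 32, near the 31.2 RPM of double_KO replicate 2. It was at 59.8 RPM in the library numbered 44, nearer to Myc_KO replicate 1 and the controls. The Max levels of both thus went with the titles. Mitochondrial transcripts took 2.21% to 2.96% of reads in the 6 knock-out libraries and 5.69% and 4.93% in the controls, and total reads stood at 0.956 to 0.995 of the effective size in knock-out libraries and at 1.092 and 1.043 in the controls.

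Transcripts of the LPS receptor itself were several fold higher in every knock-out group, while those of its LPS-binding partner were not. Tlr4 (chr4:66827584-66930284, GRCm38, GENCODE vM21) had 20.7 and 25.6 RPM in Myc_KO, 11.5 and 24.1 RPM in Max_KO, 18.1 and 23.9 RPM in double_KO and 4.11 and 3.94 RPM in control libraries. The lowest knock-out library, Max_KO replicate 1, lay well above both controls, and the 2 Max_KO libraries lay further apart than those of any other group. Tlr4 was higher than control by 2.51 on the log2 scale in Myc_KO, by 2.04 in Max_KO and by 2.36 in double_KO (SE 0.322 each), which correspond to 5.68-fold, 4.12-fold and 5.12-fold. With limma the adjusted p-values were 0.000561, 0.002 and 0.00105. Ly96 (chr1:16688051-16709611) had 6.59 and 5.29 RPM in Myc_KO, 3.72 and 4.75 RPM in Max_KO, 4.53 and 4.22 RPM in double_KO and 4.54 and 4 RPM in control libraries. Both Myc_KO libraries were above the controls, and those of the other groups overlapped with them. Its log2 differences of 0.47, -0.02 and 0.03 from control in Myc_KO, Max_KO and double_KO (SE 0.245) did not pass the threshold (limma adjusted p 0.154, 0.952 and 0.925). Ly96 rested on 66 to 101 estimated reads per library and Tlr4 on 66 and 65 reads in the controls, the lowest read counts of the 10 genes. Per kilobase of annotated exon, all transcripts of a gene joined, the level of Ly96 was 2.76 and 1.79 times that of Tlr4 in Myc_KO. It was 2.8 and 1.7 times in Max_KO, 2.17 and 1.53 times in double_KO, and 9.57 and 8.78 times in control libraries. Knock-out libraries and controls did not overlap in this ratio, which does not count transcripts per transcript. As Ly96 was not called in any group, the ratio largely restates the difference of Tlr4.

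The second LPS-linked receptor pair was higher on both sides, the receptor by more than its partner. Cd180 (chr13:102693558-102739629), the RP105 chain, had 173 and 169 RPM in Myc_KO, 73.6 and 107 RPM in Max_KO, 102 and 116 RPM in double_KO and 33.8 and 35.4 RPM in control libraries. All knock-out libraries lay above both controls, and both Myc_KO libraries stood above all others. The differences were 2.3, 1.36 and 1.65 on the log2 scale in Myc_KO, Max_KO and double_KO (SE 0.162; limma adjusted p 5.64e-05, 0.000574 and 0.000286), or 4.94-fold, 2.57-fold and 3.13-fold. Ly86 (chr13:37345208-37419036), the MD-1 chain, had 142 and 125 RPM in Myc_KO, 131 and 135 RPM in Max_KO, 130 and 111 RPM in double_KO and 88.8 and 87.6 RPM in control libraries. Myc_KO overlapped with both other knock-out groups, Max_KO lay just above double_KO, and none reached down to the controls. The differences were 0.6, 0.6 and 0.45 (SE 0.101; limma adjusted p 0.00206, 0.00272 and 0.0094). The call in double_KO was lost without double_KO replicate 1 (0.0611), control replicate 1 (0.0542) or control replicate 2 (0.0567); over all alternatives its limma adjusted p ran from 0.000229 to 0.0611. Per kilobase of exon, the level of Ly86 was 3.27 and 2.94 times that of Cd180 in Myc_KO and 7.1 and 5 times in Max_KO. It was 5.1 and 3.84 times in double_KO, and 10.4 and 9.83 times in control libraries. Every knock-out library thus had a lower ratio than both controls, which restates the larger difference of Cd180.

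The nucleic acid receptors Tlr9 and Tlr7 and the lipopeptide receptor Tlr1 were also higher in each knock-out group. Tlr9 (chr9:106222598-106226883), the endosomal receptor of unmethylated CpG DNA, had 130 and 179 RPM in Myc_KO, 92.2 and 116 RPM in Max_KO, 94.7 and 100 RPM in double_KO and 22.6 and 27.7 RPM in control libraries. The lowest knock-out library was far above the higher control. It was 6.11-fold higher in Myc_KO, 4.13-fold in Max_KO and 3.89-fold in double_KO, with log2 differences of 2.61, 2.04 and 1.96 (SE 0.176; limma adjusted p 5.53e-05, 0.000238 and 0.000218). Tlr7 (chrX:167304929-167330558), the endosomal receptor of single-stranded RNA, had 136 and 125 RPM in Myc_KO, 147 and 137 RPM in Max_KO, 141 and 129 RPM in double_KO and 61.9 and 73 RPM in control libraries. Double_KO overlapped with both single knock-outs, Max_KO lay just above Myc_KO, and all lay apart from the controls. The log2 differences were 0.96, 1.08 and 1 (SE 0.104; limma adjusted p 0.00026, 0.000274 and 0.000351). Tlr1 (chr5:64924679-64933563), which pairs with Tlr2 to bind bacterial triacyl lipopeptides, had 103 and 95.1 RPM in Myc_KO, 86.2 and 82.5 RPM in Max_KO, 85 and 72.1 RPM in double_KO and 49.2 and 53.9 RPM in control libraries. Again no knock-out library fell among the controls. The log2 differences were 0.94, 0.71 and 0.6 (SE 0.107; limma adjusted p 0.000308, 0.00161 and 0.0033). The estimated reads of Tlr1, Cd180 and Irak1 were not whole numbers, so that part of the reads of these 3 genes had been divided between transcripts of different genes. The ratio of Tlr9 to Tlr7 per kilobase was 1.09 and 1.63 in Myc_KO, 0.715 and 0.962 in Max_KO, 0.768 and 0.887 in double_KO and 0.416 and 0.432 in control libraries, which was below every knock-out library. The lower ratio in the controls restates the larger difference of Tlr9.

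**Figure D1:**
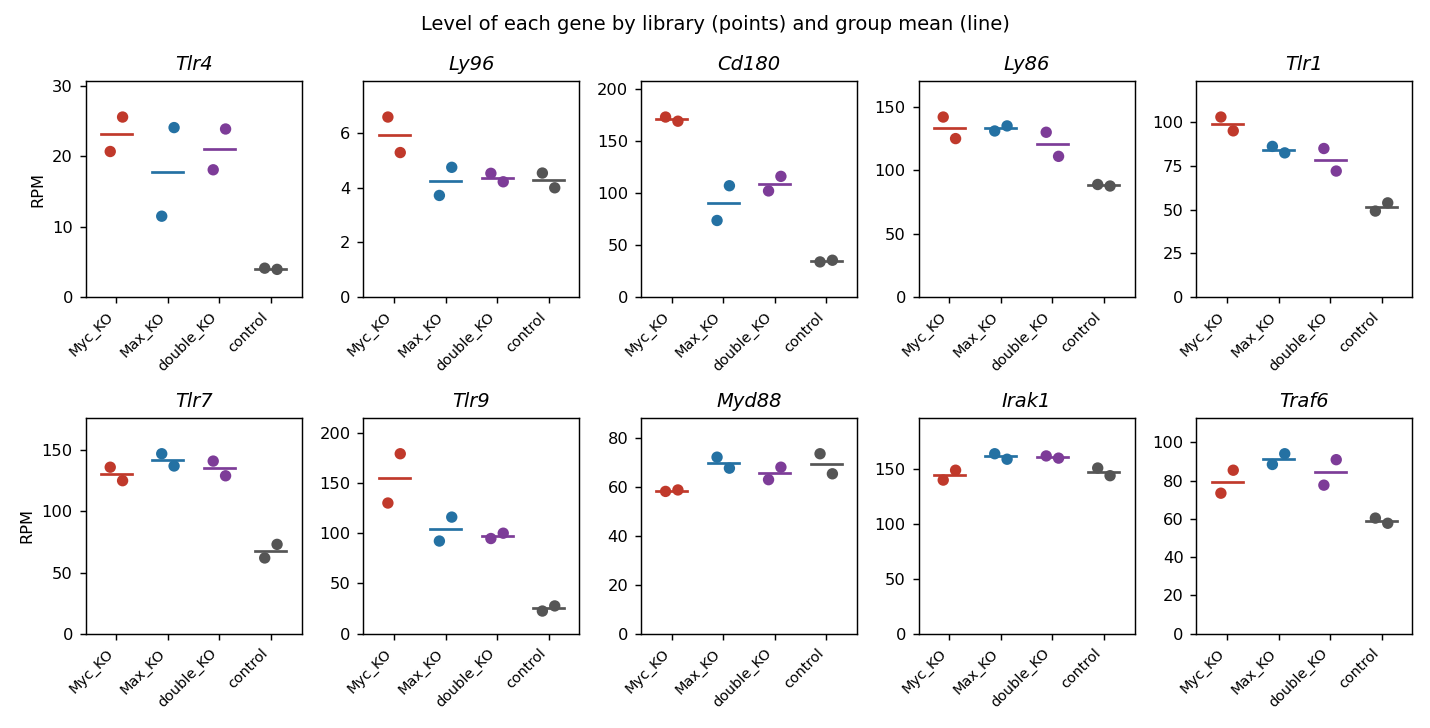
Level of each of the 10 genes in RPM on a linear axis from 0, with 1 point per library and a line at the mean of the 2 libraries of Myc_KO, Max_KO, double_KO and control. Tlr4 lies at 11.5 to 25.6 RPM in the knock-out libraries and at 4.11 and 3.94 RPM in the controls, while for Myd88 and Irak1 the libraries lie at 58.2 to 73.6 and 140 to 164 RPM.

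Of the signalling genes, Traf6 was higher in each knock-out group and Myd88 and Irak1 were not called in any. Myd88 (chr9:119335934-119341411), the shared adaptor, had 58.2 and 58.8 RPM in Myc_KO, 72.2 and 67.7 RPM in Max_KO, 63 and 68.1 RPM in double_KO and 73.6 and 65.4 RPM in control libraries. The Myc_KO libraries were the lowest, and those of Max_KO and double_KO overlapped with the controls. The log2 differences were -0.25, 0.01 and -0.08 (SE 0.0969; limma adjusted p 0.0689, 0.94 and 0.522), and the first passed the threshold with quantile normalization, at -0.31 (0.0241). Irak1 (chrX:74013914-74023918) had 140 and 149 RPM in Myc_KO, 164 and 159 RPM in Max_KO, 162 and 160 RPM in double_KO and 151 and 144 RPM in control libraries. Max_KO and double_KO libraries were slightly above the controls and Myc_KO libraries overlapped with them. The log2 differences were -0.03, 0.13 and 0.13 (SE 0.0758; limma adjusted p 0.773, 0.202 and 0.215). Scaled to the same total, Irak1 was called higher in Max_KO at 0.24 (limma adjusted p 0.0327) and in double_KO at 0.25 (0.0279), with the median of all genes moved to 0.13 and 0.15. Traf6 (chr2:101678429-101701669), which assembles the ubiquitin chains that recruit the TAK1 kinase, had 73.4 and 85.4 RPM in Myc_KO, 88.4 and 94 RPM in Max_KO, 77.6 and 90.9 RPM in double_KO and 60.4 and 57.7 RPM in control libraries. Every knock-out library was above both controls. The log2 differences were 0.42, 0.63 and 0.51 (SE 0.113; limma adjusted p 0.0162, 0.0035 and 0.00882). Without Myc_KO replicate 2, control replicate 1 or control replicate 2, Traf6 in Myc_KO had a limma adjusted p of 0.0924, 0.063 and 0.0892, and over all alternatives it ran from 0.00449 to 0.0924. In double_KO the call was lost without double_KO replicate 2 (0.0582) or control replicate 2 (0.06), with a range from 0.00132 to 0.06.

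Many genes of the table differed from control, and the 10 genes are read against that background. As the genes were chosen with earlier results of these data known, the shares are a description and not a test. In Myc_KO 7 of the 10 genes were higher and 0 lower, where 24.0% of the 12441 genes were higher and 21.4% lower, or 45.5% in either direction. In Max_KO the same 7 of 10 were higher and 0 lower, beside 22.4% of all genes higher and 17.4% lower, or 39.8% in all. In double_KO they were again 7 higher and 0 lower, beside 21.9% higher and 16.8% lower, or 38.7% in all. Tlr4, Cd180, Ly86, Tlr1, Tlr7, Tlr9 and Traf6 made up the 7 in each. For the counts of 0 lower genes, limma with voom weights also gave 0, while quantile normalization gave 1 in Myc_KO, Myd88. Of the 3 genes not called only Myd88 in Myc_KO had an unadjusted p under 0.05. The median log2 difference of the 10 genes was 0.77 in Myc_KO, 0.67 in Max_KO and 0.56 in double_KO, beside 0, 0.02 and 0.02 over all genes tested. All 6 knock-out libraries lay above both controls for 7 of the 10 genes and below both for 0 of 10, as they did for 29.2% and 26.4% of all genes. Of the genes called over the whole table, 52.9%, 56.2% and 56.6% were higher in Myc_KO, Max_KO and double_KO with the deposited scaling; with libraries scaled to the same total these shares were 66.5%, 66.7% and 68.9%, and the median of all genes moved to 0.15, 0.13 and 0.15. The 3 comparisons share the 2 control libraries.

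**Figure D2:**
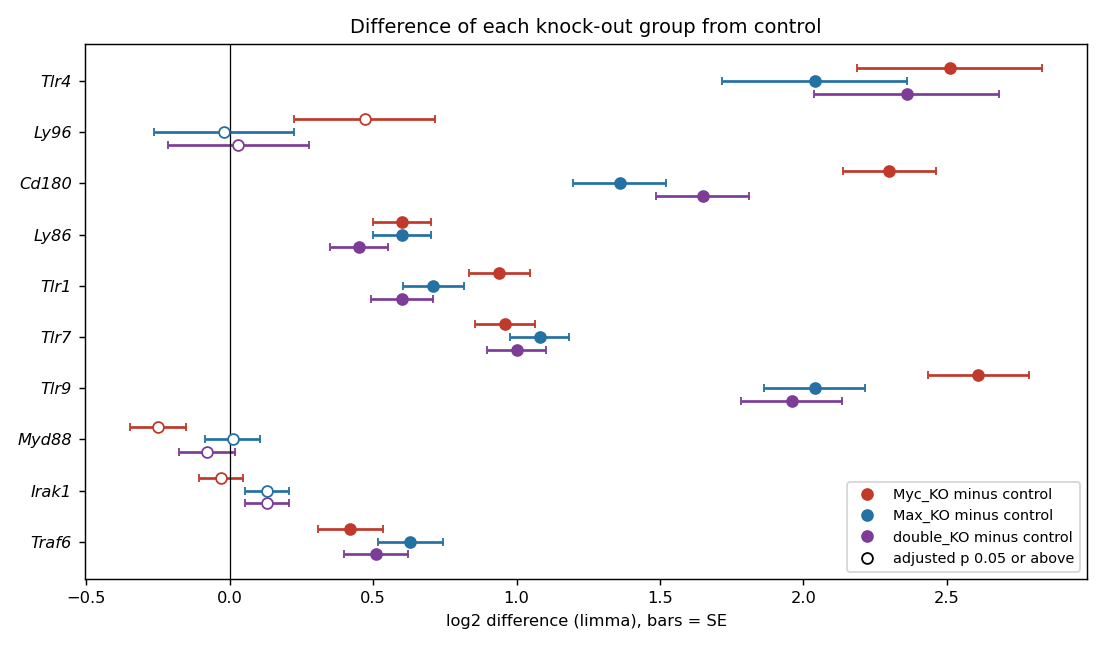
Log2 difference from control with its standard error (limma, bars) for each of the 10 genes in Myc_KO, Max_KO and double_KO; filled points passed an adjusted p of 0.05. Tlr9, Tlr4 and Cd180 have the highest values, up to 2.61, and the points of Myd88, Irak1 and Ly96 are unfilled in all groups.

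Set against each other, the knock-out groups differed for few of these genes. In Max_KO against Myc_KO, 1 of 10 genes was called, where 4.13% of all genes changed, 2.44% higher and 1.69% lower: Cd180, lower at a log2 difference of -0.94 (SE 0.162; limma adjusted p 0.0223). This call was lost in 12 of 25 alternatives, among them leaving out Myc_KO replicate 1 (0.101), Myc_KO replicate 2 (0.0597), Max_KO replicate 1 (0.0536), control replicate 1 (0.0587) or control replicate 2 (0.0592). With the groups of the description the difference was -0.57 (limma adjusted p 0.482), and over all alternatives the adjusted p ran from 4.26e-06 to 0.482. Tlr9 was at -0.57 in the same comparison (SE 0.176; limma adjusted p 0.125). In double_KO against Myc_KO 0 of 10 genes were called by limma, with or without voom weights, where 0.458% of all genes changed and 3 of the 10 had an unadjusted p under 0.05. Cd180 was at -0.66 (SE 0.162, limma adjusted p 0.149) and Tlr9 at -0.65 (SE 0.176, limma adjusted p 0.189). Both of these differences turned round, to 0.08 and 0.27, when the 2 disputed libraries were placed by their description, which their Max levels did not match. In double_KO against Max_KO 0 of 10 were called by limma, with or without voom weights, 0 had an unadjusted p under 0.05, and 0.0402% of all genes changed.

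The design also asks whether losing both genes adds up to the sum of the single losses. It did not for 7 of the 10 genes: the interaction (double_KO and control added, both single knock-outs subtracted, on the log2 scale) was called negative for 7 and positive for 0 by limma, with or without voom weights, where 15.0% of all genes were called negative and 12.4% positive, or 27.4% in all. Tlr9 had the lowest value at -2.69 (SE 0.249; limma adjusted p 0.000912), followed by Tlr4 at -2.19 (SE 0.455; 0.0104) and Cd180 at -2.02 (SE 0.228; 0.00124). For Tlr4, loss of Max came with 2.04 more on the log2 scale in cells with Myc and with -0.15 in cells without it, and loss of Myc came with 2.51 in cells with Max and 0.32 in cells without it. For Cd180 the corresponding values were 1.36 and -0.66 for Max, and 2.3 and 0.28 for Myc. The control libraries enter this value together with both single knock-outs, so that an error in them moves all terms. None of the 10 genes was called between double_KO and either single knock-out, so a gene higher in every knock-out group tends to a negative interaction. The 7 negative calls are the same 7 genes and largely restate their differences from control. In the 6 undisputed libraries, with 1 library each of Myc_KO and double_KO, the interaction of Tlr4 was -1.84 and was not called. Its limma adjusted p was 0.0748 under the replicate block, and that of Cd180 was 0.0538 with the groups of the description. The replicate number of the block, from the description, is 2 for both Myc_KO libraries and 1 for both double_KO libraries. The block was thus tied to the difference between these 2 groups and was estimated from Max_KO and control alone. Over the alternatives the adjusted p ran from 0.00138 to 0.0748 for Tlr4 and from 1.69e-06 to 0.0538 for Cd180.

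**Figure D3:**
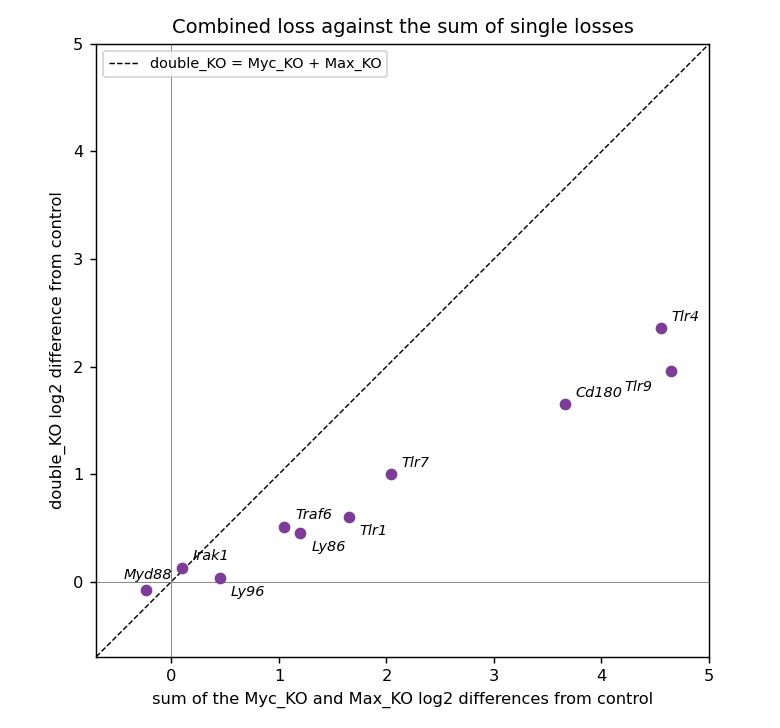
Log2 difference of double_KO from control (vertical axis) against the sum of the Myc_KO and Max_KO log2 differences from control (horizontal axis), 1 point per gene; on the dashed line the combined loss equals the sum. Tlr4, Tlr9, Cd180, Tlr7, Tlr1, Ly86 and Traf6 lie below the line, Ly96, whose interaction of -0.41 was not called, lies below it by less, and Myd88 and Irak1 lie close to it. All values share the 2 control libraries.

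The numbers in the library titles fall in the thirties and the forties, and both control libraries, numbered 34 and 38, are in the lower series. In a comparison of only the libraries numbered 32 to 38, chosen after seeing the data, each knock-out group had 1 library and the spread came from the 2 controls alone. The same 7 of 10 genes were higher in each knock-out group there, where 52.4%, 43.4% and 47.1% of 12194 genes were called in either direction in Myc_KO, Max_KO and double_KO (3290, 2925 and 3054 of them higher), with Tlr4 at 2.35 in Myc_KO, 1.51 in Max_KO and 2.16 in double_KO and Tlr9 at 2.38, 1.88 and 1.92 on the log2 scale. The libraries of the higher series include no control and give no such comparison of their own.

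Around these genes, 63 of 70 other genes of the pathway were in the table and 59 were tested. In Myc_KO 28 were higher and 5 lower, in Max_KO 22 higher and 5 lower, and in double_KO 24 higher and 2 lower, with median log2 differences of 0.39, 0.25 and 0.28. Over all genes tested, 24.0%, 22.4% and 21.9% were higher and 21.4%, 17.4% and 16.8% lower, with medians of 0, 0.02 and 0.02. Of the 4 other Toll-like receptors tested, 1, the double-stranded RNA receptor Tlr3, was called higher in Max_KO and double_KO, a count near the share of all genes. Its limma adjusted p in Myc_KO was 0.0641. The call of Tlr3 was lost in 6 of 25 alternatives in Max_KO and in 6 of 24 in double_KO. Tlr3 was near the filter, at 1.18 and 1.55 RPM in Myc_KO, 1.83 and 1.84 RPM in Max_KO, 1.34 and 2.74 RPM in double_KO and 0.622 and 0.546 RPM in control libraries, and either call was lost when a control library was left out (0.0828 and 0.1 in Max_KO, 0.0759 and 0.0922 in double_KO by limma). Tlr2, the partner of Tlr1, had 6.79 and 6.47 RPM in Myc_KO, 3.89 and 5.87 RPM in Max_KO, 6.15 and 7.68 RPM in double_KO and 3.92 and 4.49 RPM in control libraries, and passed the test in none. Tlr6, which also pairs with Tlr2, lay between 3.7 and 11.8 RPM in knock-out libraries, against 7.63 and 4.95 RPM in controls, and Tlr12 between 1.32 and 2.94 RPM against 2.37 and 3.58 RPM; both overlapped with the controls and were not called. Tlr13 was at most at 0.214 RPM and was not tested.

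Among 11 genes of receptor trafficking and processing, 4 were higher in each group, where 24.0%, 22.4% and 21.9% of all genes were higher in Myc_KO, Max_KO and double_KO. Unc93b1, the chaperone that carries Tlr7 and Tlr9 to endosomes, had 983 and 966 RPM in Myc_KO, 578 and 709 RPM in Max_KO, 726 and 632 RPM in double_KO and 424 and 433 RPM in control libraries. The groups were apart from the control by 1.18, 0.58 and 0.66 on the log2 scale (SE 0.111; limma adjusted p 0.000136, 0.00462 and 0.00264), and the call in Max_KO was lost with the groups of the description (0.065). Cathepsin S (Ctss) and legumain (Lgmn), endosomal proteases that cut the nucleic acid receptors, were higher by 1.12, 0.75 and 0.81 and by 0.61, 0.48 and 0.62. The call of Lgmn in Max_KO was lost without control replicate 1 (limma adjusted p 0.0567; range 0.00156 to 0.0567). Among the 6 TIR adaptors, 2 were higher in Myc_KO, 1 in Max_KO and 1 in double_KO, the last 2 at a share below that of all genes. Pik3ap1 (BCAP), which links receptors to PI3 kinase in B cells, was the one shared by all, at 1.45, 1.18 and 1.23 (SE 0.186; limma adjusted p 0.000549, 0.00194 and 0.00163). Of 3 tested genes of LPS binding and co-receptors, 2 were higher in Myc_KO, 1 in Max_KO and 2 in double_KO. Cd36, a scavenger receptor, was higher by 1.34 in Myc_KO and by 1.15 in double_KO and stood at 0.12 in Max_KO (SE 0.196; limma adjusted p 0.00105, 0.00287 and 0.657). Itgam, a chain of the integrin CR3, was near the filter at 2.42 and 2.62 RPM in Myc_KO, 3.39 and 3.74 RPM in Max_KO, 2.12 and 3.18 RPM in double_KO and 1.37 and 1.21 RPM in control libraries. It was called in all groups (limma adjusted p 0.0405, 0.00857 and 0.0387), but the call was lost in 17 of 24 alternatives in Myc_KO, 2 of 25 in Max_KO and 14 of 24 in double_KO, with p up to 0.15, 0.0518 and 0.207. Its partner chain Itgb2 was at 142 to 193 RPM in knock-out libraries and 151 and 156 RPM in controls, and was not called.

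Of 15 genes of the IRAK, TRAF and TAK1 module, 7 were higher and 3 lower in Myc_KO, 6 higher and 3 lower in Max_KO, and 6 higher in double_KO, where 24.0%, 22.4% and 21.9% of all genes were higher and 21.4%, 17.4% and 16.8% lower in these groups. The kinase Irak2, a relative of Irak1, had 81.4 and 78.2 RPM in Myc_KO, 42 and 43.9 RPM in Max_KO, 61.7 and 38 RPM in double_KO and 20 and 19.2 RPM in control libraries. Its log2 differences were 2.02, 1.13 and 1.3 (SE 0.196; limma adjusted p 0.000153, 0.00297 and 0.00162), where Irak1 was not called. Traf3, an adaptor of the TRIF branch, was higher by 0.98, 0.88 and 0.77. Of 12 genes that restrain the pathway, 10 were higher and 1 lower in Myc_KO and 7 higher and 1 lower in each of Max_KO and double_KO. Irak3, a kinase-inactive inhibitor, was higher by 0.59, 0.87 and 0.63, the deubiquitinase Cyld by 0.72, 0.79 and 0.73 and Socs1 by 0.9, 0.74 and 0.53. The 1 lower gene was Sigirr, an inhibitory receptor, which had 15.1 and 18.6 RPM in Myc_KO, 19.4 and 18.9 RPM in Max_KO, 18.1 and 19.4 RPM in double_KO and 43.2 and 46.4 RPM in control libraries. Of 8 genes of the TRIF arm and IRF effectors, 3, 2 and 3 were higher and 1 was lower in Myc_KO, Max_KO and double_KO, the count in Max_KO being near the share of all genes and the lower one being the kinase Ikbke at -0.67, -1.02 and -0.87. Its call in Myc_KO was lost without Myc_KO replicate 2, control replicate 1 or control replicate 2 (limma adjusted p 0.0976, 0.0875 and 0.0898; range 0.00426 to 0.0976).

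**Figure D4:**
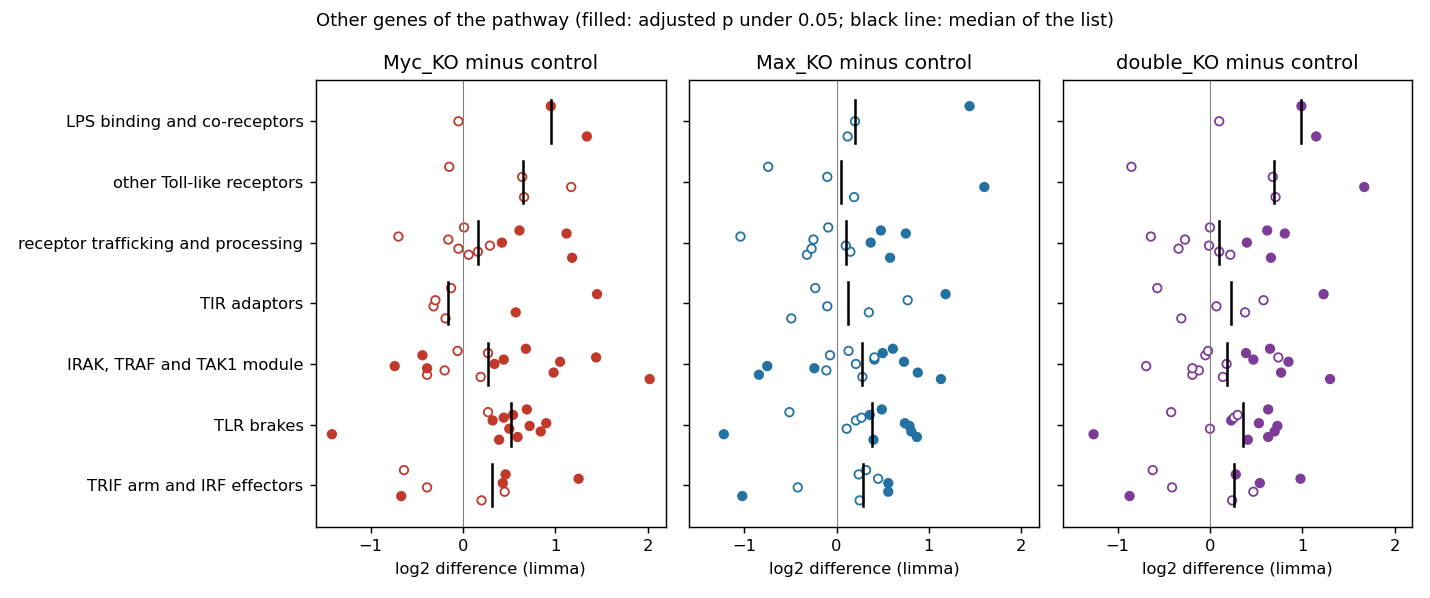
Log2 difference from control (horizontal axis) of each tested gene of 7 pathway lists (rows) in Myc_KO, Max_KO and double_KO; filled points passed a limma adjusted p of 0.05 and black lines mark list medians. Genes that restrain the pathway have most points to the right of 0, with Sigirr at -1.42, -1.22 and -1.26.

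Markers of other cell types moved with the groups in differing directions. In bulk RNA fewer cells of a type cannot be told apart from less RNA per cell. Counts of called markers stand beside 24.0%, 22.4% and 21.9% of all genes higher and 21.4%, 17.4% and 16.8% lower in Myc_KO, Max_KO and double_KO. The 6 B cell markers, all in the table, summed to 6160 to 7290 RPM in Myc_KO, 6410 to 6820 RPM in Max_KO, 6000 to 6110 RPM in double_KO and 4850 to 4920 RPM in control libraries, with Ms4a1 and Pax5 higher in every knock-out group. Myeloid markers, 6 of 10 in the table, summed to 143 to 149 RPM in Myc_KO, 94.4 to 148 RPM in Max_KO, 110 to 127 RPM in double_KO and 27.8 to 29.4 RPM in controls, most of it Mpeg1, a perforin-like gene that B cells are also known to express. Of the 4 tested, Mpeg1, Adgre1 and Itgam were higher in each knock-out group and Cd68 was lower. Adgre1 had 27.1 and 16.7 RPM in Myc_KO and 10.1 and 7.71 RPM in Max_KO. In double_KO it had 15.4 and 5.43 RPM, and in control libraries 0.809 and 1.76 RPM. Lyz2 and Csf1r, also myeloid markers, were not tested. They reached at most 0.392 and 0.204 RPM in any library, and Csf1r was at 0 in 4 of the 8. Of the natural killer markers, 5 of 6 in the table, 2 were tested and 2, 1 and 1 were higher; they summed to 16.7 to 20.4 RPM, 5.44 to 11.2 RPM and 8.27 to 16.7 RPM in Myc_KO, Max_KO and double_KO, against 4.05 to 4.61 RPM in controls. T cell markers, 8 of 8, summed to 98.3 to 117 RPM, 176 to 243 RPM and 126 to 157 RPM, against 280 to 328 RPM in controls. Most of that sum was Thy1, which was the 1 lower gene of the list in each group, while 7 were higher in Myc_KO, 4 in Max_KO and 5 in double_KO. Cd8a had 20.9 and 10.2 RPM in Myc_KO, 7.17 and 10.1 RPM in Max_KO, 7.71 and 6.91 RPM in double_KO and 0.996 and 1.33 RPM in control libraries, and Cd3e, which defines T cells, 0.932 to 3.33 RPM in knock-out libraries against 0 and 0.243 RPM in controls. Dendritic cell markers, 5 of 7, summed to 78.4 to 80.1 RPM, 116 to 119 RPM and 89.4 to 122 RPM, against 195 to 221 RPM in controls, with 3, 2 and 3 lower in Myc_KO, Max_KO and double_KO. The 1 higher in each, near the share of all genes, was Itgax. It was at 0.383 to 1.34 RPM in knock-out libraries against 0.124 and 0.0606 RPM in controls. The part of other cells in the levels of Tlr4, Cd180 and the other receptors was not tested.

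Across the 8 libraries the receptors' log2 levels ran together, with a Pearson correlation of 0.95 between Tlr4 and Cd180, 0.96 between Tlr4 and Tlr9 and 0.97 between Cd180 and Tlr9, and 0.44 between Tlr4 and its partner Ly96. These values are descriptions over 8 libraries in 4 groups and largely restate the distance of the 2 controls from the rest. Over the whole table, the genes with the pattern most like that of Tlr4 were Pdzd8 and Zmym4 (0.996 each), then Bcor, Ddx58 and Arnt (0.995 each), and those most like Cd180 were Apc (0.998), Trmt11 (0.996), Dock8 (0.995), Serp1 and Tgfbr1 (0.994 each).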

How the data were processed

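RNA sequencing of 8 libraries gave 1 table of log2 values, deposited by the authors for 15681 genes. CASAVA 1.8, cutadapt and RSEM 1.2.3, with the build GRCm38, are named per the submitters' processing notes. The sources used here give no parameters, annotation or strand setting. The deposited log2 values were found to hold estimated reads plus 0.5, scaled to an effective library size, so changes are relative to the bulk of a library's genes. Reads were recovered as multiples of 0.01 read, and RPM were computed from them without the 0.5. A design for linear values had been planned; the log2 values were used as deposited.

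The 12441 genes that reached 1 RPM in 2 libraries were fitted in limma (version 3.58.1, R 4.3.3) by lmFit and eBayes with trend over 4 groups, leaving 4 residual degrees of freedom beside 4.22 of the prior. Tests were two-sided, with Benjamini-Hochberg adjustment over all genes tested and a threshold of 0.05, in 7 contrasts. The script was tested on simulated data. Python 3.11.15 with pandas 2.3.3, numpy 2.4.6 and matplotlib 3.10.9 did the rest. Groups followed the titles; the groups of the description, the 6 undisputed libraries and 24 further alternatives were also fitted. Symbols came from GENCODE vM21, with none for 59 genes. The members and lists were chosen with earlier results of these data known. Of each list's called genes, up to 3 with the lowest adjusted p in a comparison with control could be named, the text giving part of them; genes of LPS binding and other Toll-like receptors are named whether called or not. Marker genes were singled out after their values were seen.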

Additional observations from a re-analysis of the deposited data

Results flagged for a closer look

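For 7 of the 10 genes the combined loss of Myc and Max differed from the sum of the single losses by the test of the interaction itself (limma, adjusted over all genes). The interaction on the log2 scale was -2.69 for Tlr9 (adjusted p 0.000912), -2.19 for Tlr4 (0.0104), -2.02 for Cd180 (0.00124), -1.05 for Tlr1 (0.00255), -1.03 for Tlr7 (0.00251), -0.74 for Ly86 (0.00775) and -0.54 for Traf6 (0.0378). All 7 genes were higher in each knock-out group, and double_KO libraries lay within or near the range of the single knock-outs. These interactions thus largely restate the differences from control. The values of Tlr9, Tlr1 and Tlr7 passed in all 24 alternatives. Traf6 did not in 12 of 24, with adjusted p from 0.0137 to 0.204, and Ly86 did not with the replicate number as a block (0.0507; range 0.00181 to 0.0507).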

How the results depend on the processing

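Of the 26 alternatives, 3 of them chosen after seeing the data, 26 were run for Max_KO and 25 for Myc_KO and double_KO against control. In all of these, Tlr4, Cd180, Tlr1, Tlr7 and Tlr9 kept their direction and their call in each knock-out group against control. With a library left out, 6 to 7 of the 10 genes were called in Myc_KO, 7 to 7 in Max_KO, 5 to 7 in double_KO and 6 to 7 for the interaction. For Max_KO against Myc_KO the count was 0 to 1 with a library left out, 0 with the groups of the description, the 6 undisputed libraries, the replicate block (also on the groups of the description), only the groups compared, eBayes without trend or a threshold of 0.01, 2 with the title number series as a term and 3 in the thirties alone. For double_KO against Myc_KO it was 0 to 1, 2 with that term and 1 in the thirties alone. The replicate block left 4 interactions. On the groups of the titles this block cannot be separated from the difference between Myc_KO and double_KO, so the lost calls do not show an effect of pairing. Whether the description's numbers pair the libraries could be checked by the titles only for Max_KO and control (deviation correlation -0.108). With the groups of the description the correlations ran from -0.108 to 0.263. For Myc_KO and double_KO by the titles, pairing could not be checked, as all libraries of a group share 1 number. With Max_KO and control crossed, 7 genes were called. Genes not called changed sign. Irak1 in Myc_KO was 0.03 with the groups of the description, blocked or not, 0.12 at the same total, and -0.08 to 0.02 with a library left out. Ly96 in Max_KO was 0.2 with quantile normalization, 0.08 at the same total and -0.2 to 0.15 with a library left out; in double_KO it was -0.02 in 6 libraries and -0.06 to 0.13. Myd88 in Max_KO was -0.0 with median-of-ratios, -0.07 with quantile normalization and -0.07 to 0.1 with a library left out; in double_KO it was 0.04 at the same total and -0.17 to 0.0. Cd180 and Tlr9 in double_KO against Myc_KO were 0.08 and 0.27 with the description, blocked or not. The cause was not tested. Over all genes, calls against control were 5659, 4949 and 4817 in Myc_KO, Max_KO and double_KO; they were 3344, 2650 and 2653 without control replicate 1 and 3517, 2788 and 2737 at 0.01. The interaction was called for 3413 genes, and for 1293 with the block, 1441 at 0.01 and 1689 without control replicate 1. Calls also fell by over 1.5 times without control replicate 2, to 3047 in Max_KO, 2940 in double_KO and 2154 for the interaction, and without Max_KO replicate 2, to 3184 in Max_KO and 2263 for the interaction. Max_KO against Myc_KO gave 514 (13 to 1781), double_KO against Myc_KO 57 (0 to 621) and double_KO against Max_KO 5 (0 to 344). With 2 libraries a group and 65 reads of Tlr4 in a control, small differences were not detectable.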
